A study of Homo sapiens with 6 samples.

Results

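The genes described here are 37 target genes of the transcription factor p53, chosen by their symbols and found, 1 row each, among the 16910 gene rows of the deposited table. They were measured by RNA-seq in TOV21G, an established cell line from ovarian clear cell carcinoma. The submitters set out to learn the function of GYS1, a glycogen synthase, and of p53 in this line. The 6 libraries form 3 groups of 2 of the same line. NC is labelled wild type and is read here as the control siRNA, siGYS1 is labelled as a GYS1 knockdown, and sip53 as a p53 knockdown. The labels give no siRNA sequence or number of siRNAs, no time after transfection and no word on separate cultures. The p-values therefore measure only the spread between these libraries, which may be technical.

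p53 is activated by DNA damage, oncogene signalling and metabolic stress, and binds a DNA element built from a pair of half-sites near its target genes. Its targets stop the cell cycle, start apoptosis, repair DNA, adjust metabolism and feed back on p53 itself. Ovarian clear cell carcinoma is known for glycogen-rich cytoplasm and, more often than other ovarian carcinomas, for a p53 gene without mutation.

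Read counts summed to between 17425000 and 18097337 per library. GYS1, given as a check of the siGYS1 label, was at 90.2 and 86.7 CPM (counts scaled to library size, with trimmed-mean normalisation) in NC and at 5.59 and 5.52 in siGYS1, which is 6.29% of NC. The label of sip53 was not checked against the transcript it targets. Of the markers of the labelled cell type, PAX8 (mean 150.1 FPKM, a level scaled to gene length and library size), ANXA4 (144.6) and KRT8 were present in NC, while EPCAM (4.63) was low and NAPSA (0.445), a common clear cell marker, was near 0. Some of these epithelial markers moved with the knockdowns. EPCAM fell to 34.3% of NC with sip53 (adjusted p = 0.000175), KRT8 fell with siGYS1 (log2 -0.49, adjusted p = 0.00962) and sip53 (log2 -0.40, adjusted p = 0.00787), and KRT18 fell with siGYS1 (log2 -0.55, adjusted p = 0.00611). Among markers of other cells, the leukocyte genes PTPRC and CD3E were not found among the gene rows, so they could not be checked. The sum of the endothelial markers PECAM1 and CDH5 was 0.34 to 0.47 FPKM in NC, 0.3 to 0.41 in siGYS1 and 0.93 to 1.52 in sip53. PECAM1 and CDH5 both rose with sip53 (adjusted p = 0.00261 and 0.00607) and did not pass with siGYS1. The sum of the fibroblast markers COL1A1 and DCN was 14.4 and 21.6 FPKM in NC, 14.4 and 12.1 in siGYS1 and 12.9 and 10.8 in sip53, but its members moved apart. DCN had 3 and 4 reads in NC, 7 and 3 in siGYS1 and 70 and 57 in sip53, where it rose (adjusted p = 2.88e-05), and its 6.97 FPKM in NC replicate 2 rests on the 4 reads. COL1A1 fell with sip53 (log2 -0.43, adjusted p = 0.0031). Relative to the mean of all libraries, log2 CPM followed gene length upward in siGYS1 replicate 1 (Spearman rho 0.543 across genes, which are not independent) and downward in NC replicate 2 (-0.393). The rho lay between -0.0849 and 0.042 in the other libraries. The part of these markers and of the differences between libraries in the results below was not tested, except where a result is given with length-corrected values or without a library.

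In NC the median p53 target was above the median gene. Per length, the highest in NC were GDF15 at 560.6 ± 13.7 FPKM (mean ± SD, n = 2), RPS27L at 293.4 ± 17.7, CDKN1A at 262.8 ± 1.75 and BAX at 134 ± 10.1. These stood at the 98.6th, 97.6th, 97.3rd and 94.3rd percentile of the 13235 genes that passed the filter on low counts. The lowest of the tested members were ACER2 at 2.16 ± 0.509 FPKM, ANKRA2 at 4.59 ± 0.156 and KITLG at 4.68 ± 0.608. The median of the 36 tested members was 19.7 FPKM in NC, against 12.4 for all tested genes. EDA2R, a receptor of the tumour necrosis factor family, had 1 read in NC replicate 2 and 0 in the other 5 libraries, so it was not tested.

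With siGYS1 the p53 targets that changed were higher than in NC: 16 of the 36 tested members rose and 0 fell. The largest rises were in BTG2, CCNG1, FBXW7, TP53INP1 and SESN1, between 1.51 and 2.49-fold. Over all tested genes, 10.4% rose and 9.24% fell at the same threshold, a Benjamini-Hochberg adjusted p below 0.05 in the edgeR quasi-likelihood test. The median log2 fold change was 0.315 over the members and -0.01 over all tested genes. In bulk RNA, a change in the RNA of each cell and a change in the share of cells that express a gene cannot be told apart. The 0 falls stand beside 0 members that fell in the DESeq2 Wald test, 1 with limma on log2(FPKM + 1) and 4 with length-corrected offsets. At an unadjusted p below 0.05 in edgeR, 21 members were higher and 3 were lower (XPC, SPATA18 and CES2). The share of all tested genes at that unadjusted threshold is not given here. The 2 siGYS1 libraries were both above both NC libraries for 24 members and both below for 5. Such separation was found for 28.5% and 30.2% of all tested genes, 58.8% in either direction.

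The count of rises changed with the libraries used. Leaving out NC replicate 2 gave 6 rises and leaving out NC replicate 1 gave 8. The count was 10 when either sip53 library was left out, and 15 or 17 when siGYS1 replicate 1 or 2 was. The count over all tested genes, 2602 with all libraries, moved too. It was 926 and 1696 without NC replicate 2 and NC replicate 1, 1550 and 1571 without sip53 replicate 1 and 2, and 4260 without siGYS1 replicate 2. Falls numbered 2 without siGYS1 replicate 2 and 0 in the other fits of that kind. BTG2, CCNG1, FBXW7, SESN1, TP53INP1 and PMAIP1 passed in each of these 6 fits.

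With sip53 the members split: 14 of 36 fell and 8 rose. FDXR, CES2, XPC, KITLG, PIDD1 and RRM2B fell to between 38.8% and 49.2% of NC, while PMAIP1 and GDF15 rose to 2.11 and 1.87 times NC. Over all tested genes 26.5% fell and 23.4% rose with sip53, beside 38.9% and 22.2% of the members. The share of members that rose was thus near that of all tested genes. The median log2 fold change of the members was -0.16, against -0.03 over all tested genes. Both sip53 libraries lay above both NC libraries for 11 members and below for 20, and did so for 37.3% and 41.3% of all tested genes, 78.6% in either direction. The count of rises was 5 without sip53 replicate 2, and between 6 and 10 without any other library. The count of falls stayed between 11 and 16.

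In the direct comparison the NC libraries entered the gene filter, the normalisation and the shared estimate of the spread, but not the difference itself. There 20 of 36 members were higher with siGYS1 than with sip53 and 2, PMAIP1 and GDF15, were lower. Over all tested genes 22.5% were higher and 20.9% lower in that comparison. The median log2 difference of the members was 0.43, against 0.01 over all tested genes. The 2 groups did not overlap in 25 members that were higher with siGYS1 and 5 that were lower, against 36.6% and 35.5% of all tested genes, 72.1% in either direction. The count of members higher with siGYS1 stayed between 16 and 21 when 1 library was left out.

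**Figure D1:**
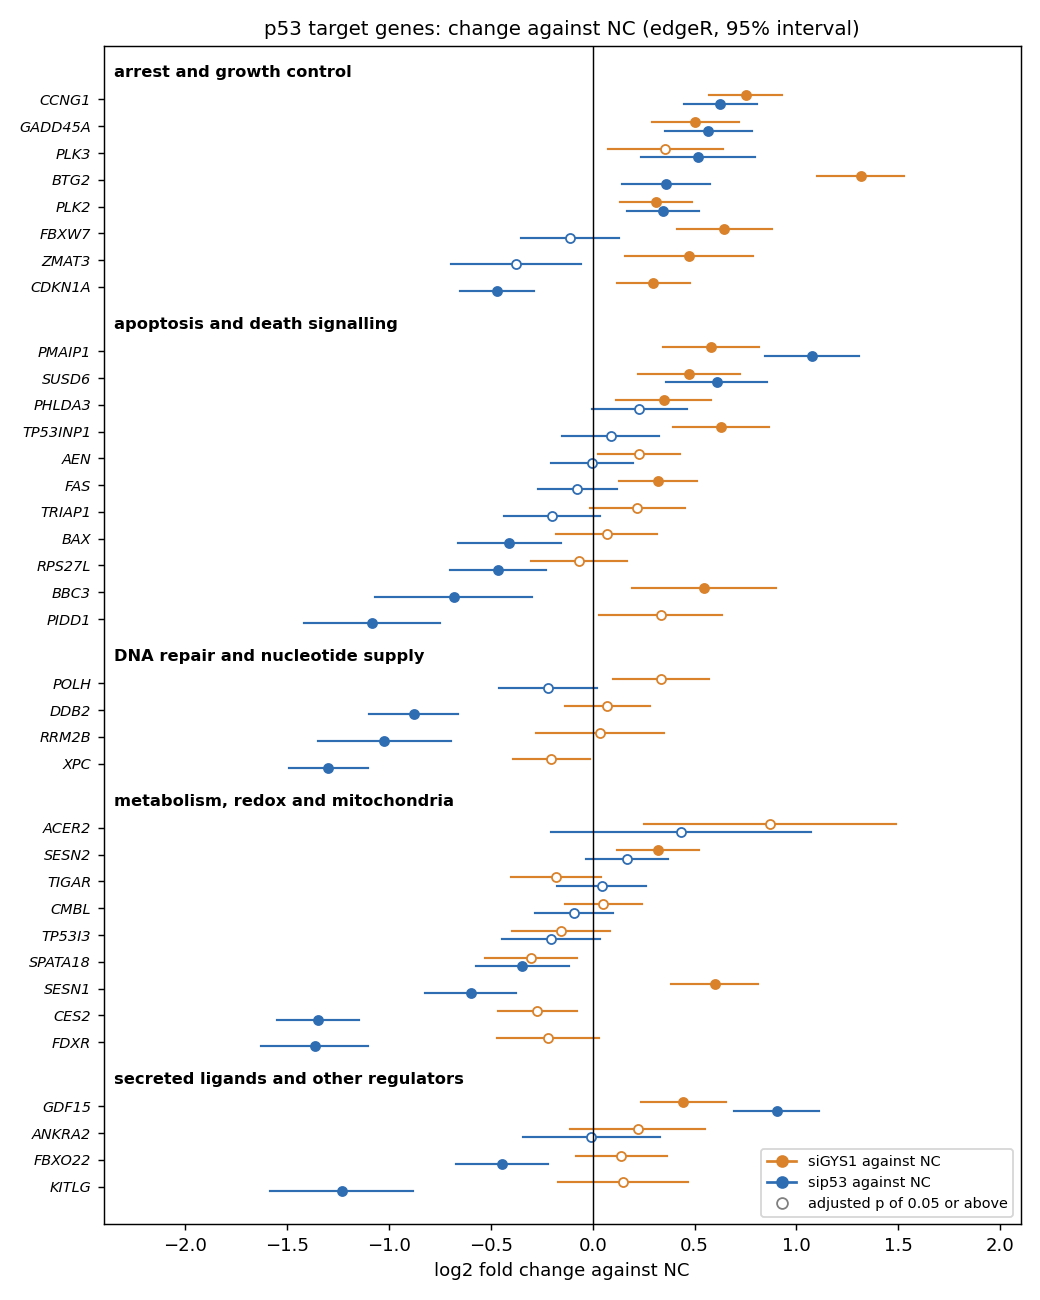
Log2 fold change against NC (x axis) of the 36 tested p53 target genes (y axis, grouped by role) for siGYS1 (orange) and sip53 (blue). Points are edgeR estimates, bars their 95% intervals, filled points have an adjusted p below 0.05, and both comparisons share the NC libraries. With siGYS1 filled points lie to the right of 0 only, while with sip53 14 lie to the left and 8 to the right.

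**Figure D2:**
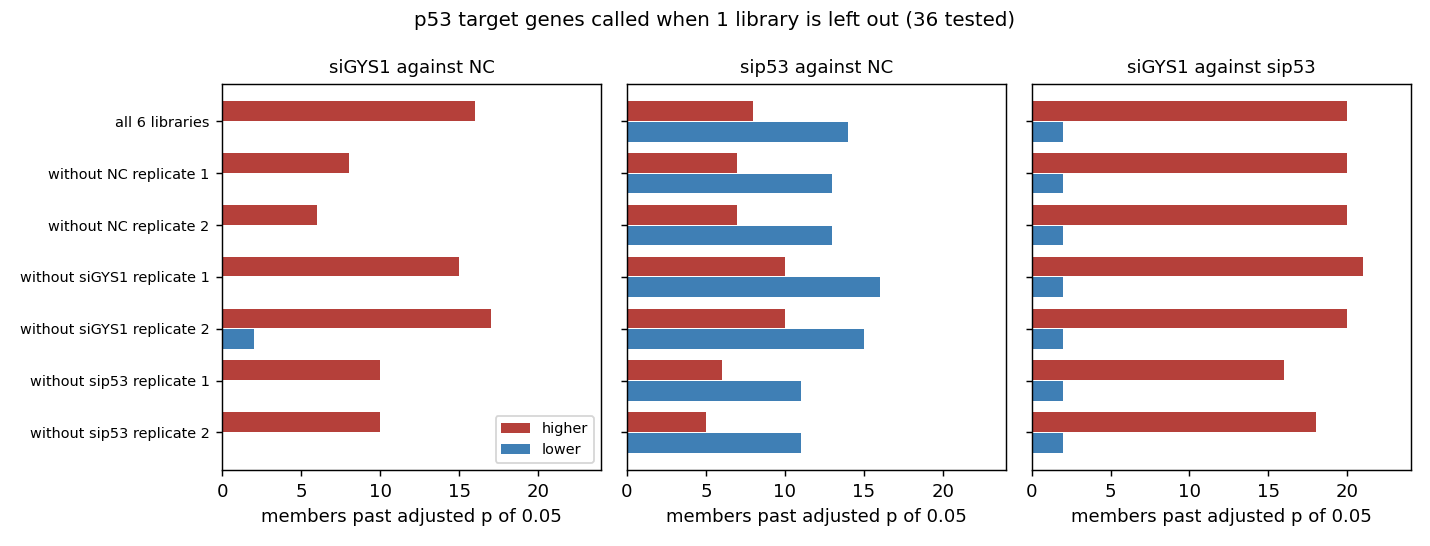
Number of the 36 tested members with an adjusted p below 0.05 (x axis) with all 6 libraries and with each library left out (y axis), for the 3 comparisons. Red bars count members that were higher, blue bars members that were lower. The 16 rises with siGYS1 drop to 6 without NC replicate 2, while the 20 members higher with siGYS1 than with sip53 stay at 16 or more.

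The sequences below show where the p53 half-site, a run of purines, then C, a pair of A or T bases, G and a run of pyrimidines, stands close to the start of a member. RefSeq windows (GRCh38.p14) from 250 bases before to 50 after a gene's start were found for 31 of the 37 members, 44 windows in all. The half-site was in 7 of these windows (15.9%), each in another gene, and in 6.63% of the 35116 windows of all genes. It reads the same on both strands. A pair of half-sites up to 13 bases apart was found in 1 member, DDB2, and in 0.0285% of all windows. Each stretch below holds 80 bases in the direction of transcription, with half-sites in capitals. A match describes these letters only, and elements of p53 that lie farther from the start, in introns or upstream, are outside these windows.

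DDB2: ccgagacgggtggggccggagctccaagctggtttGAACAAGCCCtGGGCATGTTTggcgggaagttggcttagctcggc
SESN1: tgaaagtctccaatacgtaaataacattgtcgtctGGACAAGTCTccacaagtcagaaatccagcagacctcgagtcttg
FDXR: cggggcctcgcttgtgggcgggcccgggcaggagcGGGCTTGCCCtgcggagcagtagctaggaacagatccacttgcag
RPS27L: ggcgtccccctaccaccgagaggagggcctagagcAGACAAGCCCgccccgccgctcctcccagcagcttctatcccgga
AEN: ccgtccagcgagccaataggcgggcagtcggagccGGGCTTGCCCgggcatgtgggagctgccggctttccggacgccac
FAS: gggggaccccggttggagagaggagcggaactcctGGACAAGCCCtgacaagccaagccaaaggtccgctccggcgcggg
PLK2: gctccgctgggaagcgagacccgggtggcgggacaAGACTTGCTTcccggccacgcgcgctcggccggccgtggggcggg

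The DDB2 stretch is chr11:47214944-47215023 on the plus strand, and its half-sites are 1 base apart. The SESN1 stretch is chr6:109008993-109009072 on the minus strand, before 1 of several SESN1 starts. FDXR is at chr17:74872961-74873040 (minus), RPS27L at chr15:63157492-63157571 (minus), AEN at chr15:88621271-88621350 (plus), FAS at chr10:88991274-88991353 (plus) and PLK2 at chr5:58460174-58460253 (minus). Of these 7 genes DDB2, SESN1, FDXR and RPS27L fell with sip53, PLK2 rose, and AEN and FAS did not pass. With siGYS1, SESN1, FAS and PLK2 rose and the other 4 did not pass. Over all tested genes 26.5% fell and 23.4% rose with sip53, and 10.4% rose with siGYS1. Of the 36 tested members 38.9% fell and 22.2% rose with sip53, and 44.4% rose with siGYS1. CES2, XPC, KITLG and PIDD1 also fell with sip53, and no half-site was found in their windows. Whether a half-site goes with a change was not tested. The calls of PLK2 and RPS27L with sip53 were lost without either sip53 library. Their log2 fold changes were then 0.35 and 0.34 for PLK2 and -0.47 and -0.46 for RPS27L. With siGYS1 the calls of PLK2 and FAS were lost without any library of NC or sip53, and that of FAS also without siGYS1 replicate 1.

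Of 8 genes of cell cycle arrest and growth control, 7 rose with siGYS1, against 10.4% of all tested genes, and 5 rose with sip53, against 23.4%. BTG2, CCNG1, PLK2 and GADD45A rose in both comparisons, which share the NC libraries, and PLK3 passed with sip53 but not with siGYS1. CDKN1A encodes p21, the inhibitor of cyclin-dependent kinases by which p53 stops cells in G1. It was at 465 and 464 CPM in NC, 555 and 586 in siGYS1 and 346 and 326 in sip53. The 3 groups did not overlap, with siGYS1 highest and sip53 lowest. CDKN1A rose 1.23-fold with siGYS1 (log2 0.30, SE 0.08, adjusted p = 0.0299) and fell to 72.3% of NC with sip53 (log2 -0.47, SE 0.08, adjusted p = 0.00105).

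BTG2, an antiproliferative gene that recruits mRNA deadenylases, was at 39.8 and 35.2 CPM in NC, 92.4 and 94.4 in siGYS1 and 49.4 and 46.8 in sip53. It showed the largest change of any member with siGYS1, 2.49-fold (log2 1.32, SE 0.10, adjusted p = 5.72e-05), and a smaller rise with sip53 (log2 0.36, SE 0.10, adjusted p = 0.0121). CCNG1 encodes cyclin G1, which acts in feedback on p53 through MDM2 and a phosphatase. It was at 163 CPM in both NC libraries, 274 in both siGYS1 libraries and 257 and 246 in sip53. CCNG1 was thus higher than NC in all 4 knockdown libraries, 1.68-fold with siGYS1 (adjusted p = 0.000388) and 1.54-fold with sip53 (adjusted p = 0.000169).

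FBXW7, the substrate receptor of a ubiquitin ligase that degrades cyclin E and MYC, was at 33.5 and 28.0 CPM in NC, 49.3 and 47.0 in siGYS1 and 29.2 and 27.8 in sip53. It rose 1.57-fold with siGYS1 (adjusted p = 0.00325), while its sip53 libraries overlapped NC (log2 -0.11, adjusted p = 0.423). ZMAT3, a zinc finger protein that binds RNA, was at 73.3 and 62.7 CPM in NC, 108 and 80.5 in siGYS1 and 54.6 and 50.1 in sip53. The spread between its siGYS1 libraries was wide. It rose with siGYS1 (log2 0.47, SE 0.14, adjusted p = 0.0429) and was at log2 -0.38 with sip53, just short of the threshold (adjusted p = 0.0505).

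GADD45A, a stress sensor of growth arrest and DNA repair, was at 30.1 and 30.3 CPM in NC, 40.1 and 45.6 in siGYS1 and 44.3 and 45.2 in sip53. PLK2, a polo-like kinase of the stress response, was at 213 and 218 CPM in NC, 262 and 271 in siGYS1 and 273 and 274 in sip53. Both genes were higher than NC in each knockdown library. GADD45A rose with siGYS1 (log2 0.50, adjusted p = 0.00673) and sip53 (log2 0.57, adjusted p = 0.000924), and so did PLK2 (log2 0.31, adjusted p = 0.024, and log2 0.34, adjusted p = 0.00526). The related kinase gene PLK3 was at 9.80 and 11.6 CPM in NC, 14.0 and 13.4 in siGYS1 and 14.9 and 15.8 in sip53. It rose with sip53 (log2 0.52, adjusted p = 0.00696) and did not pass with siGYS1 (log2 0.36, adjusted p = 0.076).

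Of the 7 rises with siGYS1 in the arrest genes, 4 were counted when NC replicate 1 or either sip53 library was left out, and 3 for NC replicate 2. CDKN1A and PLK2 lost their call without any of these 4 libraries (adjusted p 0.0752 to 0.162), ZMAT3 without these or siGYS1 replicate 1 (0.0513 to 0.251) and GADD45A without NC replicate 2 (0.0507). With sip53 the 5 rises were 3 without sip53 replicate 1 and 2 without sip53 replicate 2. The calls of BTG2 (adjusted p 0.0529 to 0.121; also without NC replicate 2), PLK2 (0.0522 to 0.054) and PLK3 (0.058 to 0.0645; without NC replicate 1 or sip53 replicate 2) were among those lost. ZMAT3 passed as a fall with sip53 without NC replicate 2 or either siGYS1 library (0.00302 to 0.045).

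**Figure D3:**
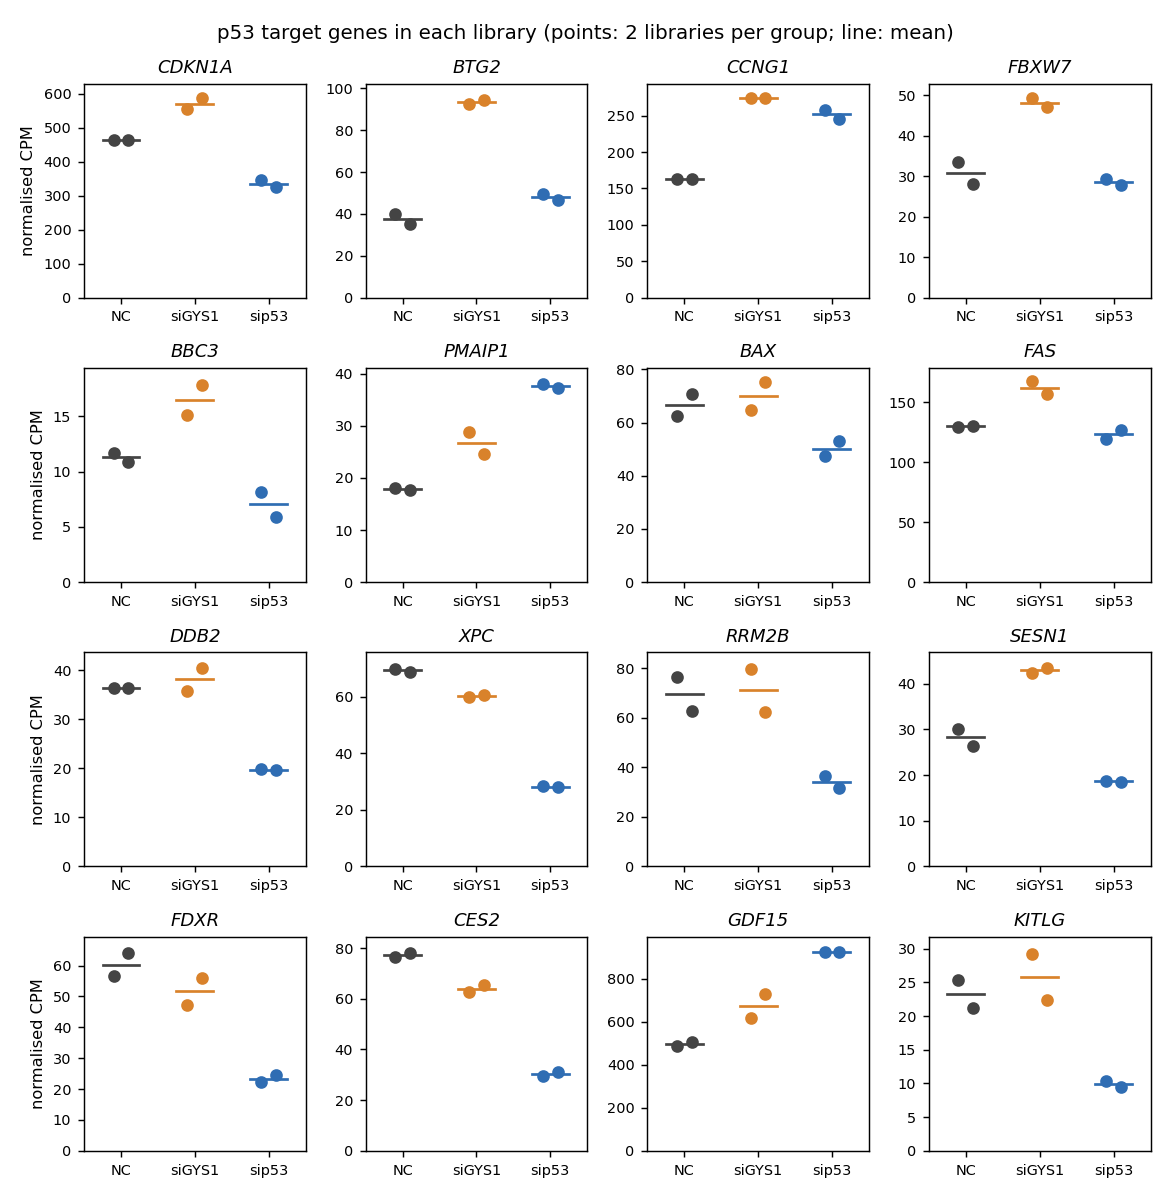
Normalised CPM (y axis, from 0) of 16 members in each of the 6 libraries, grouped by NC, siGYS1 and sip53 (x axis). Each point is 1 library and each line the mean of 2. CDKN1A, BBC3 and SESN1 are highest in siGYS1 and lowest in sip53, whereas PMAIP1 and GDF15 are highest in sip53 and lowest in NC.

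Apoptosis genes went in both directions with sip53, where BAX, BBC3, PIDD1 and RPS27L fell and PMAIP1 and SUSD6 rose. These are 36.4% and 18.2% of the 11 tested genes, against 26.5% and 23.4% of all tested genes. In either direction 54.5% changed with sip53, near the 49.9% of all tested genes. With siGYS1, 6 of the 11 rose (54.5%), against 10.4% of all tested genes. BBC3 encodes PUMA and PMAIP1 encodes NOXA, both BH3-only proteins that set off the mitochondrial route to cell death. BBC3 was at 11.7 and 10.8 CPM in NC, 15.2 and 17.9 in siGYS1 and 8.18 and 5.88 in sip53. It rose 1.46-fold with siGYS1 (log2 0.55, SE 0.16, adjusted p = 0.0376) and fell to 62.3% of NC with sip53 (log2 -0.68, SE 0.17, adjusted p = 0.00847). PMAIP1 was at 18.0 and 17.8 CPM in NC, 28.9 and 24.7 in siGYS1 and 38.2 and 37.4 in sip53. Unlike BBC3, PMAIP1 was highest in sip53: it rose 2.11-fold there (log2 1.08, SE 0.10, adjusted p = 3.16e-05) and to 149.6% of NC with siGYS1 (log2 0.58, SE 0.11, adjusted p = 0.00539).

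BAX, the pore-forming effector of mitochondrial apoptosis, was at 62.6 and 70.9 CPM in NC, 64.6 and 75.3 in siGYS1 and 47.4 and 53.01 in sip53. It fell to 75.3% of NC with sip53 (adjusted p = 0.0131), and the siGYS1 libraries overlapped NC (log2 0.07, adjusted p = 0.695). PIDD1, which builds the PIDDosome complex that activates caspase-2 and NF-kB, was at 17.6 and 21.9 CPM in NC, 22.5 and 27.3 in siGYS1 and 9.11 and 9.54 in sip53. With sip53 it fell to 47.2% of NC (log2 -1.08, SE 0.15, adjusted p = 0.000272), the largest fall in this group. RPS27L, a ribosomal protein paralogue, fell from 150.2 and 166 CPM in NC to 115 and 114 in sip53 (log2 -0.46, adjusted p = 0.00504). It was at 137 and 165 CPM in siGYS1 and did not pass there (adjusted p = 0.691). The deposited counts of RPS27L, and those of FAS, ZMAT3, TIGAR and FBXO22, are not whole numbers in any of the 6 libraries. How their reads were divided with other genes cannot be seen in these files, so the values of these 5 genes are less certain.

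The death receptor gene FAS was at 129.6 and 129.8 CPM in NC, 168 and 157 in siGYS1 and 119 and 127 in sip53. It rose 1.25-fold with siGYS1 (adjusted p = 0.0282) and did not pass with sip53 (log2 -0.07, adjusted p = 0.498). TP53INP1, a nuclear and autophagosomal cofactor in cell death, was at 44.6 and 39.8 CPM in NC, 69.5 and 61.4 in siGYS1 and 46.9 and 42.8 in sip53. It rose 1.55-fold with siGYS1 (log2 0.63, SE 0.11, adjusted p = 0.00365), with sip53 overlapping NC (log2 0.09, adjusted p = 0.522). SUSD6, a membrane protein gene induced by DNA damage, was at 26.2 and 24.3 CPM in NC, 38.1 and 32.0 in siGYS1 and 40.3 and 36.7 in sip53. It rose in both knockdowns, by log2 0.47 (adjusted p = 0.0174) and 0.61 (adjusted p = 0.00146).

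PHLDA3, which keeps the kinase Akt from the membrane, was at 48.0 and 52.3 CPM in NC, 58.9 and 68.9 in siGYS1 and 57.1 and 60.4 in sip53. It rose with siGYS1 (log2 0.35, adjusted p = 0.0427). With sip53 it did not pass (log2 0.23, adjusted p = 0.0949), although both sip53 libraries were above both NC libraries. PHLDA3 did not pass between the knockdowns either (log2 0.12, adjusted p = 0.375). AEN, an exonuclease of apoptotic cells, was at log2 0.23 with siGYS1 (adjusted p = 0.102) and -0.002 with sip53 (adjusted p = 0.988). TRIAP1, a mitochondrial inhibitor of apoptosis, was at 0.22 (adjusted p = 0.164) and -0.20 (adjusted p = 0.141). AEN and TRIAP1 thus passed in neither comparison with NC.

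The 6 rises with siGYS1 among apoptosis genes dropped to 4 when siGYS1 replicate 2 or either sip53 library was left out, to 3 for NC replicate 1 and to 2 for NC replicate 2. FAS lost its call without any library of NC or sip53 or siGYS1 replicate 1 (adjusted p 0.0739 to 0.162), PHLDA3 without any of NC or sip53 or siGYS1 replicate 2 (0.0873 to 0.191), BBC3 without either NC library or siGYS1 replicate 2 (0.0532 to 0.19) and SUSD6 without NC replicate 2 or siGYS1 replicate 1 (0.0534 to 0.125). PIDD1 and TRIAP1 passed as rises without siGYS1 replicate 1 (0.0275 and 0.0446). With sip53 the 4 falls were 2 without either sip53 library: BAX was lost without NC replicate 2 or sip53 replicate 1 (0.103 to 0.138), BBC3 without sip53 replicate 2 (0.0835) and RPS27L without either sip53 library (0.0501 to 0.0509). PHLDA3 passed as a rise with sip53 without either siGYS1 library (0.0228 to 0.0373).

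Of 4 genes of DNA repair and nucleotide supply, 3 fell with sip53, against 26.5% of all tested genes. With siGYS1 0 of 4 passed, against 19.7% of all tested genes. XPC did pass as a fall with siGYS1 in edgeR with length-corrected offsets (adjusted p = 0.016) and with the replicate number as a block (adjusted p = 0.0464). XPC recognises helix-distorting damage in nucleotide excision repair. It was at 70.0 and 68.7 CPM in NC, 59.9 and 60.7 in siGYS1 and 28.4 and 28.1 in sip53. DDB2, its partner in the recognition of ultraviolet damage, was at 36.3 and 36.4 CPM in NC, 35.8 and 40.6 in siGYS1 and 19.8 and 19.7 in sip53. Both sip53 libraries were far below the 4 others for each gene. XPC fell to 40.7% of NC (log2 -1.30, SE 0.09, adjusted p = 3.72e-06) and DDB2 to 54.4% (log2 -0.88, SE 0.10, adjusted p = 7.8e-05).

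RRM2B, the p53-inducible subunit of ribonucleotide reductase that supplies deoxynucleotides to resting cells, was at 76.3 and 62.5 CPM in NC, 79.9 and 62.3 in siGYS1 and 36.6 and 31.7 in sip53. It fell to 49.2% of NC with sip53 (log2 -1.02, SE 0.15, adjusted p = 0.000339), and its siGYS1 libraries overlapped NC (log2 0.03, adjusted p = 0.886). POLH, a polymerase that copies past ultraviolet lesions, was at 39.1 and 39.9 CPM in NC, 54.7 and 45.2 in siGYS1 and 33.5 and 34.4 in sip53. It stayed short of the threshold in both comparisons, at log2 0.34 with siGYS1 (adjusted p = 0.0504) and -0.22 with sip53 (adjusted p = 0.117). POLH passed as a rise without siGYS1 replicate 2 (adjusted p = 0.00154) and as a fall with sip53 without siGYS1 replicate 1 (adjusted p = 0.0424).

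Of 9 genes of metabolism, redox and mitochondria, 4 fell with sip53 and 0 rose. The sestrin genes SESN1 and SESN2 were the 2 that rose with siGYS1. The falls with sip53 are 44.4% of the list, against 26.5% of all tested genes that fell and 49.9% that changed in either direction. The rises with siGYS1 are 22.2%, against 10.4% that rose and 19.7% that changed in either direction. Sestrins restrain the growth kinase mTORC1 and support antioxidant defence. SESN1 was at 30.1 and 26.5 CPM in NC, 42.4 and 43.4 in siGYS1 and 18.8 and 18.6 in sip53, so that the 3 groups did not overlap. It rose 1.51-fold with siGYS1 (log2 0.60, SE 0.10, adjusted p = 0.00297) and fell to 66.0% of NC with sip53 (log2 -0.60, SE 0.10, adjusted p = 0.000899). SESN2 was at 57.8 and 54.0 CPM in NC, 67.6 and 72.0 in siGYS1 and 61.8 and 63.7 in sip53. Its rise was 1.25-fold with siGYS1 (adjusted p = 0.0337), and it did not pass with sip53 (log2 0.17, adjusted p = 0.151).

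FDXR, the mitochondrial reductase that feeds electrons to ferredoxin for steroid and iron-sulfur cluster synthesis, was at 56.5 and 63.9 CPM in NC, 47.3 and 56.0 in siGYS1 and 22.2 and 24.6 in sip53. CES2, a carboxylesterase that hydrolyses drugs and lipids, was at 76.5 and 78.0 CPM in NC, 62.7 and 65.3 in siGYS1 and 29.5 and 31.3 in sip53. These were the deepest falls of any member with sip53, to 38.8% of NC for FDXR (log2 -1.36, SE 0.12, adjusted p = 1.65e-05) and 39.3% for CES2 (log2 -1.35, SE 0.09, adjusted p = 3.5e-06). Both were also below NC in each siGYS1 library without passing (log2 -0.22, adjusted p = 0.191, and log2 -0.27, adjusted p = 0.0521). SPATA18, a mitochondrial quality control gene, fell with sip53 from 21.2 and 20.2 CPM to 16.9 and 15.7 (log2 -0.35, adjusted p = 0.0184). With siGYS1 it was at 16.5 and 17.0 CPM (log2 -0.30, adjusted p = 0.0638).

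The other 4 metabolic genes passed in neither comparison. TIGAR, a phosphatase that lowers glycolytic flux, was at log2 -0.18 with siGYS1 (adjusted p = 0.223) and 0.04 with sip53 (adjusted p = 0.739). TP53I3, a quinone oxidoreductase, was at -0.15 (adjusted p = 0.34) and -0.21 (adjusted p = 0.141). CMBL, a hydrolase, was at 0.05 (adjusted p = 0.694) and -0.09 (adjusted p = 0.4). ACER2, an alkaline ceramidase of the Golgi, was at 6.03 and 4.35 CPM in NC, 12.4 and 6.59 in siGYS1 and 7.03 and 6.97 in sip53. One siGYS1 library was high and the other close to sip53, and ACER2 did not pass (log2 0.87, SE 0.28, adjusted p = 0.0521).

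Without siGYS1 replicate 2, ACER2 passed as a rise with siGYS1 (log2 1.28, adjusted p = 4.97e-05), and CES2 (adjusted p = 0.0449) and FDXR (0.0338) passed as falls. SESN2 lost its call without either NC or either sip53 library (0.0808 to 0.241). SPATA18 lost its call with sip53 without any of the same 4 libraries (0.0554 to 0.135). ACER2 passed as a rise with sip53 without either siGYS1 library (0.0296 to 0.0442).

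Among secreted ligands and other regulators, GDF15 rose in both knockdowns and KITLG and FBXO22 fell with sip53. GDF15 is a stress cytokine of the transforming growth factor beta family. It was at 485 and 504 CPM in NC, 618 and 728 in siGYS1 and 925 and 923 in sip53. The groups did not overlap, and sip53 was highest. GDF15 rose 1.36-fold with siGYS1 (log2 0.44, SE 0.09, adjusted p = 0.0105) and 1.87-fold with sip53 (log2 0.90, SE 0.09, adjusted p = 5.18e-05). Its call with siGYS1 was lost without NC replicate 1 (adjusted p = 0.0543) or NC replicate 2 (adjusted p = 0.0502).

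KITLG, the ligand of the receptor KIT, was at 25.4 and 21.2 CPM in NC, 29.3 and 22.4 in siGYS1 and 10.4 and 9.43 in sip53. It fell to 42.5% of NC with sip53 (log2 -1.23, SE 0.16, adjusted p = 0.000166) and did not pass with siGYS1 (log2 0.15, adjusted p = 0.489), except as a rise without siGYS1 replicate 2 (log2 0.35, adjusted p = 0.0465). FBXO22, an F-box protein of a ubiquitin ligase, was at 71.4 and 65.1 CPM in NC, 80.3 and 70.2 in siGYS1 and 50.02 and 50.1 in sip53. It fell to 73.4% of NC with sip53 (adjusted p = 0.00471). ANKRA2, an ankyrin repeat protein, passed in neither comparison (log2 0.22 with siGYS1, adjusted p = 0.322, and -0.007 with sip53, adjusted p = 0.973).

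The direct comparison of both knockdowns is given by role. All 4 repair genes were higher with siGYS1 than with sip53, as were 7 of 11 apoptosis genes and 4 of 8 arrest genes. So were 3 of 9 metabolic genes and 2 of 4 ligands and regulators. In this order they are 100%, 63.6%, 50%, 33.3% and 50% of the lists, against 22.5% of all tested genes. The largest differences were in PIDD1 (log2 1.42, SE 0.15, adjusted p = 6.26e-05), KITLG (1.38, SE 0.16, adjusted p = 0.000102), BBC3 (1.23, SE 0.17, adjusted p = 0.000315), SESN1 (1.199, SE 0.10, adjusted p = 1.65e-05) and FDXR (1.14, SE 0.12, adjusted p = 6.22e-05). XPC, CES2 and RRM2B followed at 1.09, 1.08 and 1.06. In the arrest group BTG2 (0.96), ZMAT3 (0.85), CDKN1A (0.77) and FBXW7 (0.76) were higher with siGYS1.

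The other 4 arrest genes did not pass between the knockdowns. The 95% interval of the log2 difference was -0.21 to 0.14 for PLK2, -0.27 to 0.15 for GADD45A, -0.05 to 0.30 for CCNG1 and -0.44 to 0.11 for PLK3. PMAIP1 (log2 -0.50, SE 0.10, adjusted p = 0.00321) and GDF15 (-0.46, SE 0.09, adjusted p = 0.00329) were lower with siGYS1 than with sip53. BAX (0.48), TRIAP1 (0.42), RPS27L (0.40) and FAS (0.40) were higher with siGYS1. Without sip53 replicate 1 these 4 did not pass (adjusted p 0.0727 to 0.0924), and the apoptosis count was 3 in place of 7. RPS27L (adjusted p 0.0507 and 0.096) also lost its call without siGYS1 replicate 2 or sip53 replicate 2, and TRIAP1 without sip53 replicate 2 (0.0579). AEN passed without siGYS1 replicate 1 (0.0295) and ACER2 without siGYS1 replicate 2 (0.00108).

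**Figure D4:**
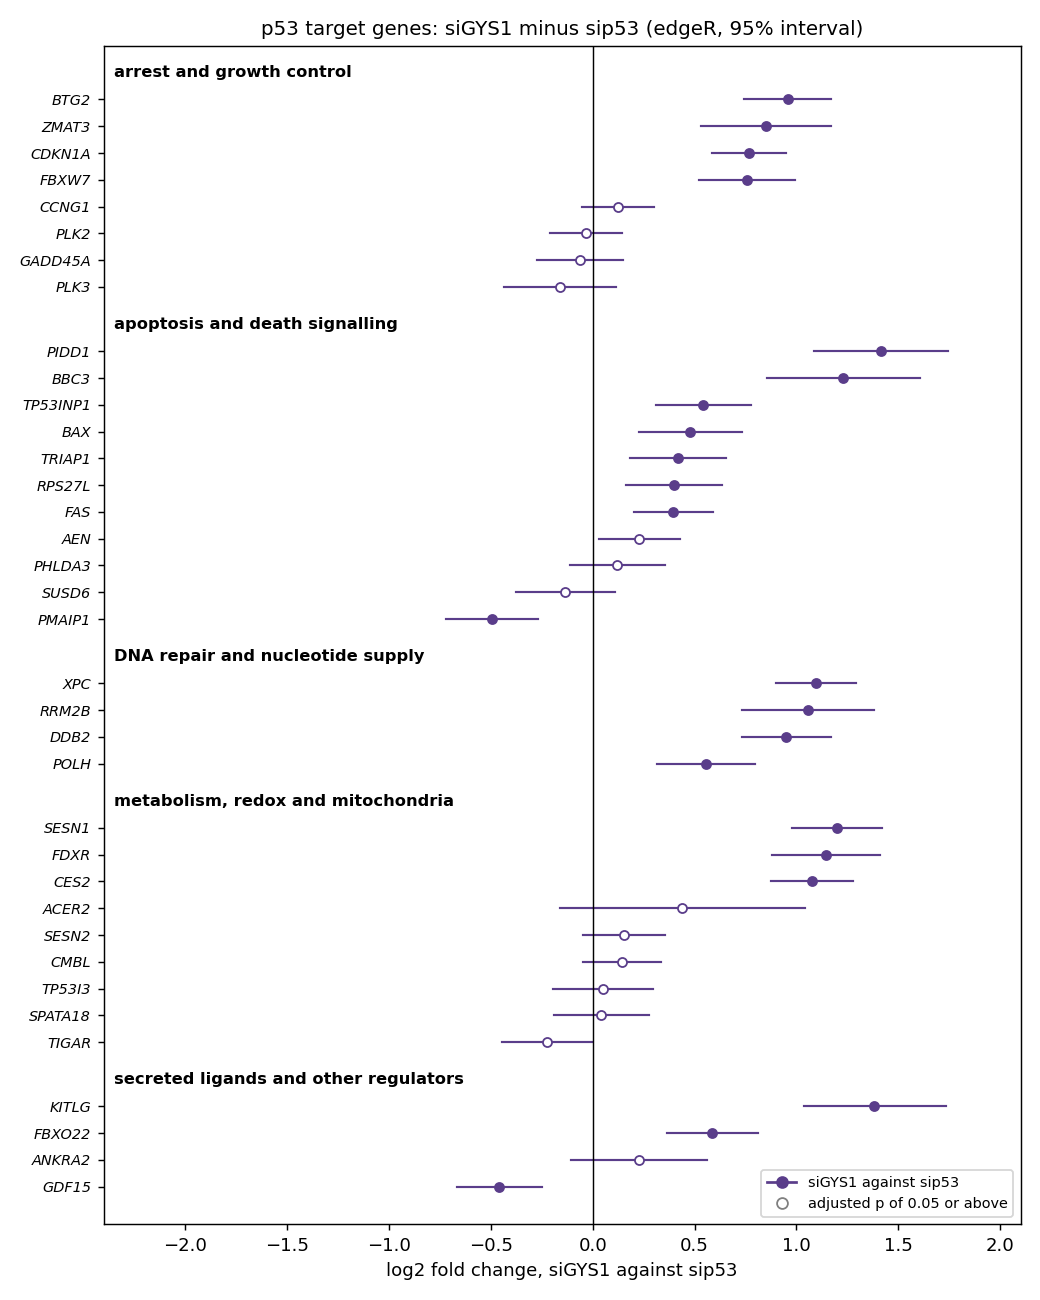
Log2 fold change of siGYS1 against sip53 (x axis) for the 36 tested members (y axis, grouped by role), with 95% intervals from edgeR. Filled points have an adjusted p below 0.05. The 4 repair genes lie between 0.56 and 1.09, and PMAIP1 and GDF15 are the 2 filled points to the left of 0.

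Other genes of the p53 pathway were followed as 2 further lists. Of 16 regulators of p53, 1 rose and 1 fell with siGYS1, and 1 rose and 6 fell with sip53. In either direction these are 12.5% and 43.8% of the list, against 19.7% and 49.9% of all tested genes. The count of regulators that rose with siGYS1 was larger without siGYS1 replicate 2, as was the count of all tested genes that changed. MDM2, the ubiquitin ligase that degrades p53 and is itself a target, was at 246 and 235 CPM in NC, 319 and 272 in siGYS1 and 83.6 and 77.0 in sip53. It fell with sip53 (log2 -1.58, SE 0.10, adjusted p = 2.89e-06) and did not pass with siGYS1 (log2 0.30, adjusted p = 0.0595), except without siGYS1 replicate 2 (adjusted p = 0.00301). The p53 relative TP73 fell with sip53 from 6.14 and 6.23 CPM to 1.61 and 1.89 (log2 -1.82, adjusted p = 5.77e-05). RCHY1, another ubiquitin ligase for p53, fell with siGYS1 (log2 -0.51, adjusted p = 0.00522) and rose with sip53 (log2 0.48, adjusted p = 0.00163). The phosphatase gene PPM1D rose with siGYS1 (log2 0.36, adjusted p = 0.0413), a call lost when NC replicate 2, siGYS1 replicate 1 or either of the sip53 libraries was left out (0.0511 to 0.297). The acetyltransferase gene KAT5 fell with sip53 (log2 -0.46, adjusted p = 0.00973), a call lost without NC replicate 2 or sip53 replicate 2 (0.053 to 0.0874). The 6 falls were 4 without NC replicate 2 or either sip53 library.

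Of 18 further targets, 4 rose and 1 fell with siGYS1, and 10 rose and 4 fell with sip53. With siGYS1, 22.2% of the list rose and 5.56% fell, against 10.4% and 9.24% of all tested genes. With sip53, 55.6% rose and 22.2% fell, against 23.4% and 26.5%. THBS1, an inhibitor of angiogenesis, fell with both, from 501 and 475 CPM in NC to 265 and 227 in siGYS1 and 48.5 and 49.9 in sip53. The death receptor gene TNFRSF10B was at 288 and 275 CPM in NC, 320 and 311 in siGYS1 and 879 and 828 in sip53 (log2 1.60, adjusted p = 8.78e-07). PCNA, the sliding clamp of DNA replication, fell with sip53 (log2 -1.35, adjusted p = 8.42e-06). TNFRSF10A rose with sip53 (log2 0.74, adjusted p = 0.000683), and APAF1 did not pass there (log2 0.01, adjusted p = 0.943). With siGYS1, both TNFRSF10A (log2 0.51, adjusted p = 0.0174) and APAF1 (log2 0.55, adjusted p = 0.0215) rose. Both calls were lost without NC replicate 2 or siGYS1 replicate 1, and APAF1 also without either sip53 library (adjusted p 0.0508 to 0.157). The 4 rises with siGYS1 were 2 without siGYS1 replicate 1 or either sip53 library and 1 without NC replicate 2, and the 4 falls with sip53 were 2 without NC replicate 1 or sip53 replicate 1.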

How the data were processed

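The members and gene lists were chosen with earlier results of these data known. The deposited table holds FPKM, TPM, read counts and normalized read counts per library, per the file headers. The authors' read counts are expected counts (16.8% to 18.1% of values are not whole, tolerance 1e-09), the deposited TPM sum to between 999999 and 1000000 per library, and the deposited normalized count, a scaled signal, is the count times 1 constant per library. Group means in that table were left aside. The submitters' processing notes list several aligners and counters with no role (among them STAR, Salmon and featureCounts), and the mouse build mm10, although 16830 of 16910 identifiers are in human GENCODE 29. Which of them produced these values is not stated there.

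Expected counts were rounded and fitted in edgeR 4.0.16 (R 4.3.3): filterByExpr (minimum count 10, leaving 13235 genes), TMM, glmQLFit and glmQLFTest, group as sole term, all 6 libraries, 3 residual degrees of freedom, Benjamini-Hochberg over all tested genes. SE was taken as |log2 fold change| over the square root of F. CPM are TMM-normalised. limma 3.58.1 used log2(FPKM + 1), DESeq2 was 1.42.0, and gene length for length-corrected offsets came from deposited counts and FPKM. The code was tested on simulated data. All 37 members are named, ordered by role, and of the other pathway lists up to 4 changed genes with the largest change. The half-site search with a spacer was added after the data were seen. The transcript targeted by sip53, 1 cell type marker and 1 gene of the other pathway lists are not reported here.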

Additional observations from a re-analysis of the deposited data

How the results depend on the processing

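Of 1620 member values under 15 alternatives, 0 called values changed direction, and 49 changed sign without a call in either fit. The alternative with a minimum log2 change of 0.5 keeps the fold changes of the main fit, so its values could not change direction. The calls of BTG2, CCNG1, FBXW7, SESN1 and TP53INP1 with siGYS1 held in each alternative, as did 8 falls and 5 rises with sip53 and 15 members higher with siGYS1 than with sip53. Members that rose with siGYS1 (16) were 7 with limma on log2(FPKM + 1), 5 with log2(FPKM + 0.1), 10 with only the compared groups, 8 with a minimum log2 change of 0.5, and 6 to 17 when 1 library was left out. Members that fell (0) were 1 with log2(FPKM + 1) and 4 with length-corrected offsets. In the fit with length-corrected offsets 22 members rose, against 16 in the main fit. With sip53, 9 members in place of 14 fell at the minimum change, and the 8 rises were 5 to 10 with 1 library left out. Members lower with siGYS1 than with sip53 (2) were 4 with length-corrected offsets and 0 at the minimum change. Of all tested genes, 2602 changed with siGYS1, against 1090 with log2(FPKM + 0.1), 1577 with only the compared groups, 4120 with length-corrected offsets, 1409 at the minimum change and 926 to 4260 with 1 library left out. With sip53, 6605 changed, 4211 at the minimum change and 4271 to 7621 with 1 library left out. Between the knockdowns 5745 differed, 3545 at the minimum change and 3416 to 6337 with 1 library left out. With 1 library of a group left out, the lone library is assumed to vary like the other groups. The cause of these shifts was not tested.

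The replicate numbers are shared by the groups, but the labels do not say that they mark a batch or day. Deviations of same-numbered libraries correlated at 0.283 (NC with siGYS1), -0.0161 (NC with sip53) and 0.128 (siGYS1 with sip53). With the replicate number as a block, 4662 of all tested genes changed with siGYS1, against 2602 without it. Of the members, 21 rose and 4 fell with siGYS1, and 17 fell and 9 rose with sip53. The shares of all tested genes in each direction are not given for this fit, so these member counts have no background beside them. ACER2, with 81 to 216 reads per library, had the widest interval of the members, and EDA2R could not be tested at this depth.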
